A study of Mus musculus with 20 samples.

Results

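The endocannabinoid genes of N2A cells, a mouse neuroblastoma line, were examined after laser scanning. The set held 9 of the 34083 genes with estimated counts: Cnr1, Cnrip1, Dagla, Daglb, Napepld, Faah, Mgll, Abhd6 and Abhd12. The set was chosen by the level of Cnr1, which was lower in the I2-E2 group than in unexposed cells, so every value of I2-E2 is given as a description, with no test. The other members were taken for their place in the same pathway. Bulk RNA-seq of polyadenylated RNA covered 20 libraries in 2 batches, named so by the labels, and each comparison was made within a batch. Cells filled wells of 384-well plates, and per the methods of the study a whole well was scanned and lysed 1 h later. In batch 1 the unexposed negative control (NC) and 4 exposed groups had 3 libraries each, and exposed wells were scanned by 1 laser through a 20X objective. The settings I0-E0, I0-E2 and I0-E4 shared an average power of 20 mW and differed in dwelling time, which was 2, 10 and 20 µs per pixel, for fluencies of 10, 48 and 95 J/cm2. I2-E2 received 100 mW, 5 times that power, at 2 µs per pixel, and so the fluency of I0-E2. Batch 2 held 2 NC libraries and 3 of I3-E3-SRS, a near-burning setting with 2 lasers through a 60X objective at 79 J/cm2. The labels number the libraries without naming cultures, and the methods mention 3 wells of unexposed cells, so the spread behind each p-value may be technical.

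Cnr1 encodes CB1, the main cannabinoid receptor of neurons, which couples to inhibitory G proteins and dampens transmitter release. Its lipid ligands are made on demand. Diacylglycerol lipases (Dagla, Daglb) release 2-arachidonoylglycerol from diacylglycerol, and the phospholipase D encoded by Napepld releases anandamide from a membrane phospholipid. Faah hydrolyses anandamide, while Mgll, Abhd6 and Abhd12 hydrolyse 2-arachidonoylglycerol. Cnrip1 encodes a small protein that binds the tail of CB1. Mouse neuroblastoma cells of the N2A type are widely used to study CB1 signalling and neurite growth.

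The library totals lay between 5623685 and 8636798 estimated counts in batch 1 and between 5473588 and 12698770 in batch 2. Among the neuroblastoma markers, Tubb3, Stmn2, Hand2 and Chga were at 100.1 TPM (a level per length, scaled to 1 sum in each library) or more in every library, while Nefl was at 0.153 TPM or less. The 4 glial, 4 macrophage, 4 fibroblast and 2 endothelial markers summed to at most 5.07, 4.79, 4.65 and 13.4 TPM in a library. Each of these sums overlapped between NC and every exposed group of batch 1. NC replicate 1 of batch 2 stood apart: its correlation with the other NC library was 0.959 across genes, against 0.979 or more within every other group, and 6 of the 9 members had lower TPM there than in all 4 other libraries of batch 2. The log2 fold changes of the members in batch 2 are therefore also given without it. I0-E0 replicate 3 had reads on 19940 genes, the most of any library.

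Per length, the hydrolase Abhd12 was the most abundant member in unexposed cells and Mgll was nearly absent. In the NC libraries of batch 1, Abhd12 was at 45.7 ± 1.29 TPM (SD, n = 3), Cnrip1 at 27.4 ± 3.0, Cnr1 at 21.9 ± 2.19, Abhd6 at 16.0 ± 2.19 and Daglb at 14.5 ± 0.919. Faah followed at 6.78 ± 0.736, Napepld at 2.85 ± 0.203, Dagla at 1.73 ± 0.333 and Mgll at 0.502 ± 0.397. These levels include non-coding transcripts: the coding share of TPM in these libraries was 53.2% to 67.2% for Faah and 36.6% to 100% for Mgll. Abhd12 lay above all other members in each of these libraries, and the libraries of Cnrip1 and Cnr1 did not overlap. The libraries of Abhd6 and Daglb overlapped, so the order of that pair was within the spread. Of the diacylglycerol lipases, Daglb lay above Dagla in each of these libraries.

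**Figure D1:**
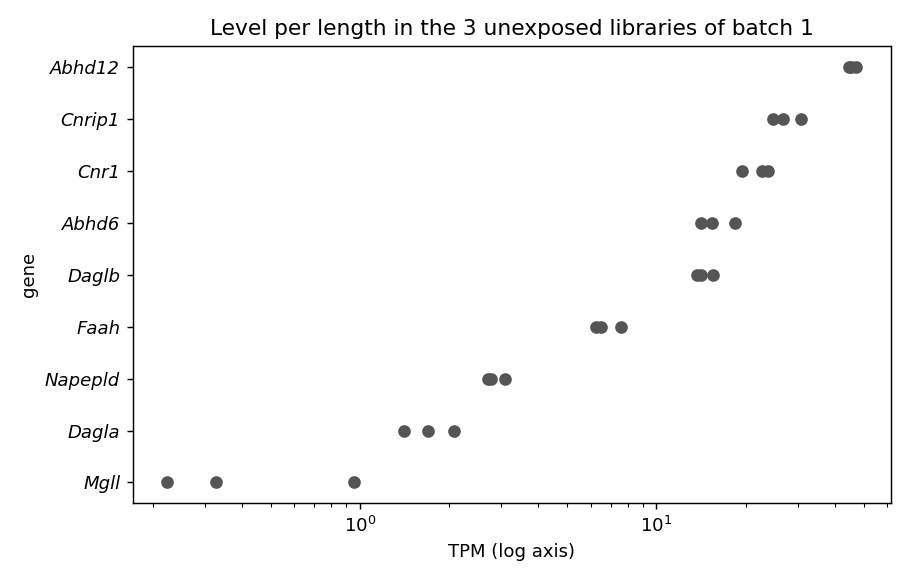
Level per length of the 9 genes in the 3 NC libraries of batch 1, with TPM on a log axis and 1 point per library. Abhd12 sits highest, at a mean of 45.7 TPM, and Mgll lowest, at 0.502 TPM.

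Cnr1 lies at chr4:33924593-33948831 on the plus strand of GRCm38 and is a protein-coding gene with no other counted gene over it. Most of its reads were assigned to Cnr1-201, a coding transcript of 5807 bases, which took 58.6% to 99.7% of the gene's reads in the libraries of batch 1. The rest went mainly to Cnr1-202, a coding transcript of 5761 bases that starts further downstream. The split between these transcripts is the authors' estimate and varied within groups, from 0% to 39.5% for Cnr1-202 among the I2-E2 libraries. Promoter windows are shown for Cnr1, the receptor of the set, and for Napepld. They were picked because both genes had lower scaled read counts in all I0-E4 libraries than in all I0-E0 libraries. The 250 bases before the most upstream start of Cnr1 in RefSeq (GRCm38.p6, chr4:33924014-33924263, plus strand, 79.2% G and C) and those before the start of Napepld (chr5:21701623-21701872, minus strand, 69.6%) read as follows, with capitals for GGGCGG on either strand in Cnr1 and for AAGATGG on either strand in Napepld:
Cnr1: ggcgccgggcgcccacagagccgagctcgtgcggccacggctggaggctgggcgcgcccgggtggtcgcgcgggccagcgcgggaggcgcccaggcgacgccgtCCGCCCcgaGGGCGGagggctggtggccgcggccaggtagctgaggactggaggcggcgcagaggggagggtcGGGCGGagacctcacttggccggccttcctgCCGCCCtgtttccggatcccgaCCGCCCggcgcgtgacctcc
Napepld: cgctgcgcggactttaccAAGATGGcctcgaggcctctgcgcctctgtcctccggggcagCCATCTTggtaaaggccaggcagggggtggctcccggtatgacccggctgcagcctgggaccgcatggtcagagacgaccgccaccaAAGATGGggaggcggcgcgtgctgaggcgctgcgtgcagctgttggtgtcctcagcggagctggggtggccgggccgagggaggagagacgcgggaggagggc
RefSeq windows of 300 bases, 50 of them after the start, were at hand for 7 of the 9 members, 11 windows in all. GGGCGG, the GC box, occurred 5 times in this window of Cnr1 and in 7 of the 11 windows, from 5 of the members, beside 35.7% of all 32851 windows. The start of this window, at 33924264, lies upstream of that of Cnr1-201, at 33924632. The Cnr1 windows with starts at 33924644 and 33926380 held 0 copies of GGGCGG. The windows of Abhd6 overlap each other, as do those of Mgll at their edges, so the windows are not all separate. The E-box CACGTG occurred in a second window of Cnr1 and in 1 of Mgll (7.15% of all windows), and TATAAA occurred in no window of the 7 members (13.6% of all). AAGATGG, searched after the Napepld sequence had been read, occurred 3 times there and in no other window of a member (6.34% of all). Each motif was searched on both strands. These matches describe the letters of the windows, and binding was not measured.

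Cnr1 was highest in the NC and I0-E0 libraries and lower in each of the groups with a larger fluency. The NC libraries of batch 1 held 74.1, 73.8 and 66.5 CPM (read counts relative to the scaled library size), and the I0-E0 libraries 71.1, 74.1 and 72.0. The I0-E2 libraries held 65.9, 65.5 and 64.3 CPM, the I0-E4 libraries 59.7, 65.2 and 62.3, and the I2-E2 libraries 56.4, 59.4 and 62.2. In CPM, NC and I0-E0 overlapped, as did I0-E2 with I0-E4 and I0-E4 with I2-E2. Every library of I0-E2, I0-E4 and I2-E2 lay below every library of NC and I0-E0 in CPM, the nearest at 65.9 and 66.5. This pooled order holds the I2-E2 and NC libraries that chose the gene, and its share over all genes was not counted. In TPM, NC ranged from 19.5 to 23.7 and overlapped I0-E2 (17.5 to 19.8), I0-E4 (16.2 to 21.7) and I2-E2 (15.1 to 19.7). I0-E0, at 20.4 to 22.0 TPM, overlapped I0-E4 but neither I0-E2 nor I2-E2. The group means were 71.5 ± 4.30 CPM (SD, n = 3) in NC, 72.4 ± 1.52 in I0-E0, 65.2 ± 0.857 in I0-E2, 62.4 ± 2.76 in I0-E4 and 59.3 ± 2.89 in I2-E2. These values rest on 334 to 616 reads per library. In bulk RNA, fewer cells with the transcript and less transcript per cell cannot be told apart.

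At a fixed intensity, Cnr1 was lower at the largest fluency than at the smallest, without passing the threshold. The Cnr1 difference that chose the members did not use I0-E4 and I0-E0, though earlier results of these data were known at that choice. The log2 fold change between them was -0.22 (standard error 0.06, 95% interval -0.35 to -0.083). Cnr1 was lower in 3 of 3 libraries in CPM, while the groups overlapped in TPM. Without I0-E0 replicate 3 the value was also -0.22. With all libraries the adjusted p was 0.966 by edgeR's quasi-likelihood test over 12296 genes, where Cnr1 ranked as number 27 by its p. Against NC, the log2 fold change was 0.02 (0.06) in I0-E0, -0.13 (0.06) in I0-E2 and -0.20 (0.06) in I0-E4, with adjusted p by edgeR of 1.00, 0.993 and 0.612. These comparisons share the NC libraries with the one that chose the gene. In that comparison, I2-E2 against NC, the value was -0.27 (0.06). At equal fluency, I2-E2 lay at -0.14 (0.06) against I0-E2, also a description. All I2-E2 libraries lay below all I0-E2 libraries in CPM, and the groups overlapped in TPM.

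The near-burning setting of batch 2 showed no such order for Cnr1. The NC libraries held 76.5 and 81.7 CPM and the I3-E3-SRS libraries 81.1, 84.3 and 69.6, and the groups overlapped. The log2 fold change was -0.02 (standard error 0.09, 95% interval -0.24 to 0.20), with an adjusted p of 1.00 by edgeR. Without NC replicate 1 it was -0.065. These libraries and those of batch 1 were not compared with each other, and their difference was not tested.

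**Figure D2:**
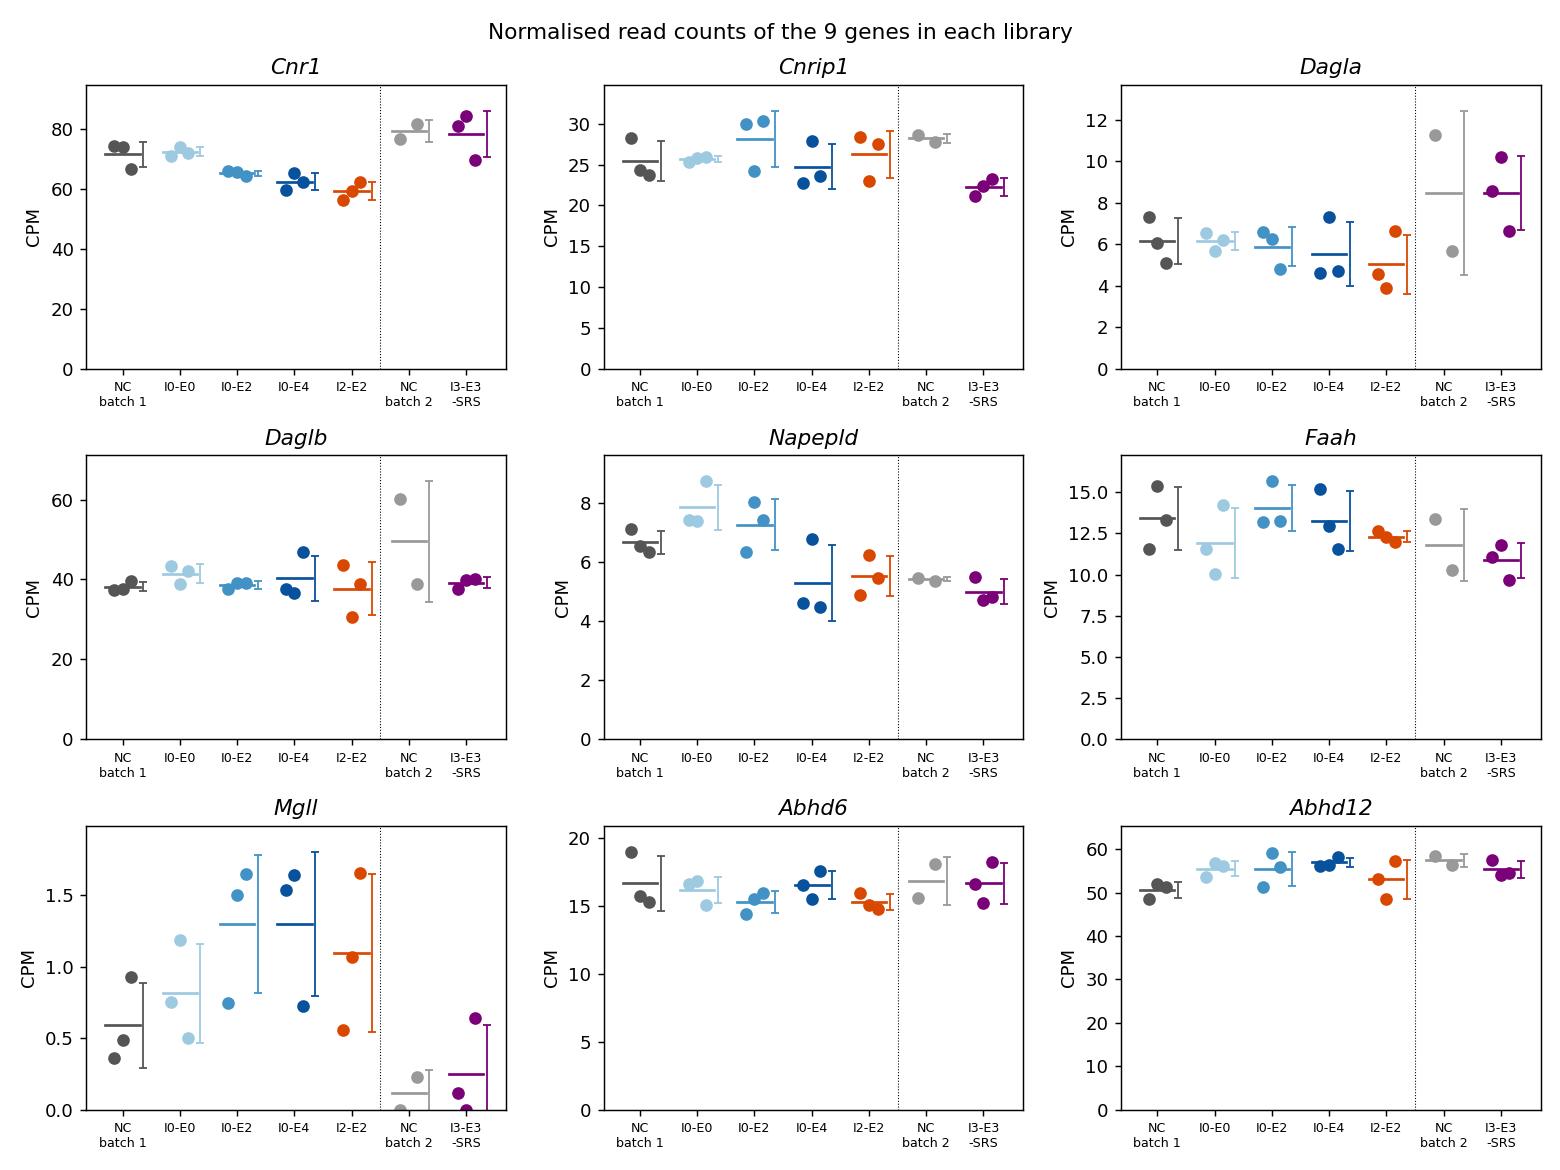
Normalised read counts (CPM) of the 9 genes, 1 panel per gene with its own axis from 0, 1 point per library, a horizontal line at the group mean and a bar of 1 SD beside it. The dotted line separates the batches. The Cnr1 libraries of I0-E2, I0-E4 and I2-E2 all lie below those of NC and I0-E0. The I2-E2 and NC libraries chose the gene, and the share of all genes with this order was not counted. The Cnrip1 libraries of I3-E3-SRS all lie below the NC libraries of batch 2, where 18.6% of all genes did not overlap in either direction.

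Cnrip1 (chr11:17051586-17079371, plus strand), whose product binds CB1, did not follow the receptor in batch 1 but was lower in I3-E3-SRS. In batch 1 its group means lay between 24.8 ± 2.80 CPM (SD, n = 3) in I0-E4 and 28.1 ± 3.44 in I0-E2, and each exposed group overlapped NC. The log2 fold changes against NC were 0.01 (standard error 0.11) in I0-E0, 0.14 (0.11) in I0-E2, -0.05 (0.12) in I0-E4 and, as a description, 0.05 (0.12) in I2-E2. The I0-E4 libraries differed from I0-E0 by -0.06 (0.12). In batch 2 the NC libraries held 28.6 and 27.8 CPM and the I3-E3-SRS libraries 21.1, 22.4 and 23.2, without overlap. In TPM the NC libraries were at 12.6 and 28.3, on either side of the I3-E3-SRS libraries at 21.0 to 22.9. The log2 fold change was -0.34 (0.09, 95% interval -0.56 to -0.12), lower in 3 of 3 libraries, with an adjusted p of 1.00 by edgeR over 12031 genes. Without NC replicate 1 it was -0.32, with an adjusted p of 0.999 by edgeR. The gene Plek overlaps Cnrip1 on the opposite strand with 13 to 37 reads per library, few beside the 129 to 290 of Cnrip1.

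The diacylglycerol lipases, which make 2-arachidonoylglycerol, showed no separation of groups in batch 1. Dagla (chr19:10245265-10304877, minus strand) rested on 22 to 109 reads per library, summed over its transcripts. In 1 I0-E4 library and 1 I3-E3-SRS library nearly all its reads, 39.0 and 75.0, were assigned to Dagla-202, a transcript annotated for nonsense-mediated decay. Elsewhere nearly all went to the coding Dagla-201, so the values of those libraries may not describe coding transcript. Its NC libraries held 7.34, 6.06 and 5.10 CPM and its I2-E2 libraries 4.58, 3.91 and 6.63, which overlapped. The log2 fold changes of Dagla against NC were -0.01 (standard error 0.23) in I0-E0, -0.08 (0.23) in I0-E2, -0.19 (0.24) in I0-E4 and, as a description, -0.27 (0.24) in I2-E2. With standard errors this large, changes of the size seen for Cnr1, which themselves passed no threshold, could not be told from 0 for Dagla. I0-E4 against I0-E0 stood at -0.17 (0.24) with an adjusted p of 0.968 by edgeR. In batch 2 the NC libraries of Dagla held 11.3 and 5.70 CPM and the I3-E3-SRS libraries 8.55, 10.2 and 6.64. The log2 fold change was 0.03 (0.32, adjusted p 1.00 by edgeR) with both NC libraries and 0.56 (0.29, adjusted p 0.999 by edgeR) without NC replicate 1, so its size rested on that library.

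Daglb (chr5:143464584-143505942, plus strand) was the better measured lipase, with 172 to 503 reads per library. In batch 1 its group means ran from 37.7 ± 6.61 CPM (SD, n = 3) in I2-E2 to 41.5 ± 2.33 in I0-E0, beside 38.2 ± 1.19 in NC. Its log2 fold changes against NC were 0.12 (0.11), 0.02 (0.11) and 0.09 (0.11) in I0-E0, I0-E2 and I0-E4, and -0.0087 (0.11) as a description in I2-E2. In batch 2, NC replicate 1 held 60.2 CPM, NC replicate 2 38.9, and the I3-E3-SRS libraries 37.6, 39.8 and 40.2. The log2 fold change of -0.32 (0.17, adjusted p 1.00 by edgeR) rested on NC replicate 1, and was 0.014 without that library. With NC replicate 1 as the only control it was -0.61, with an adjusted p of 0.0055 by edgeR. Daglb shares its end with Rac1 on the opposite strand, which held 2334 to 5393 reads per library. With both strands counted, 75.5% of the 31-base words of Daglb occurred in no other gene, and the counting was not stated to use strand. Rac1, in CPM of the unscaled library total, stood at 430 in NC replicate 1 of batch 2 and at 445 in NC replicate 2, and its part in the Daglb value was not tested.

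Napepld, the anandamide-forming phospholipase D (chr5:21662901-21701396, minus strand), was the member with the largest difference between I0-E4 and I0-E0 apart from the barely detected Mgll. The NC libraries of batch 1 held 7.10, 6.54 and 6.34 CPM and the I0-E0 libraries 7.42, 7.38 and 8.72. The I0-E2 libraries held 6.34, 8.02 and 7.40 CPM, the I0-E4 libraries 4.60, 6.76 and 4.46, and the I2-E2 libraries 4.86, 6.22 and 5.45. In CPM all I0-E0 libraries lay above all NC libraries, all I2-E2 libraries below them, and I0-E4 overlapped NC in 1 library. In TPM, NC ranged from 2.71 to 3.08, below I0-E0 at 3.11 to 3.67 and overlapping I0-E2 at 2.70 to 3.28. I0-E4, at 1.88 to 2.64 TPM, and I2-E2, at 2.02 to 2.38, lay below NC. The share of all genes apart in TPM was not counted. I0-E4 against I0-E0 gave a log2 fold change of -0.59 (standard error 0.19, 95% interval -0.99 to -0.20), lower in 3 of 3 libraries, with an adjusted p of 0.966 by edgeR. Without I0-E0 replicate 3 it was -0.51, and without I0-E4 replicate 2 it was -0.79. Against NC the log2 fold change was 0.23 (0.18) in I0-E0, 0.12 (0.18) in I0-E2 and -0.36 (0.19) in I0-E4, with adjusted p by edgeR of 1.00, 0.993 and 0.631. As a description, it was -0.28 (0.19) in I2-E2 against NC and -0.40 (0.18) in I2-E2 against I0-E2. In batch 2 Napepld was at 5.45 and 5.36 CPM in NC and at 5.47, 4.69 and 4.80 in I3-E3-SRS, a log2 fold change of -0.12 (0.20) with an adjusted p of 1.00 by edgeR, and of -0.11 without NC replicate 1. All these levels rest on 29 to 70 reads per library, divided between the coding transcripts Napepld-201 and Napepld-202 in shares that went from 35.0% to 100% for Napepld-201.

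Faah, which degrades anandamide (chr4:115967145-116017926, minus strand), overlapped between unexposed and exposed groups in CPM. Its NC libraries of batch 1 held 11.5, 15.4 and 13.3 CPM, the I0-E0 libraries 11.6, 10.0 and 14.2, and the I0-E4 libraries 15.2, 13.0 and 11.6. In CPM no exposed group stood apart from the NC group of its batch. In TPM the I3-E3-SRS libraries, at 7.23 to 11.7, lay above the NC libraries of batch 2, at 4.88 to 5.12. The share of all genes that stood apart in TPM was not counted. The log2 fold changes against NC were -0.17 (0.15) in I0-E0, 0.06 (0.15) in I0-E2, -0.02 (0.15) in I0-E4 and -0.11 (0.18) in I3-E3-SRS, with adjusted p by edgeR of 0.971 or more. As a description, the I2-E2 libraries, at 12.6, 12.3 and 11.96 CPM, lay below the I0-E2 libraries, at 13.2, 15.7 and 13.3. The coding transcript Faah-201 took 60.3% to 87.6% of the reads in batch 1, and retained-intron and non-coding transcripts of the gene took the rest. Its share of the gene's TPM was 27.0% to 85.4% in batch 1 and 24.3% to 39.7% in I3-E3-SRS. With counts rebuilt from TPM, the value of I0-E0 against NC changed sign to 0.11 and that of I3-E3-SRS to 0.51. Without NC replicate 1, the value of I3-E3-SRS was 0.076.

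**Figure D3:**
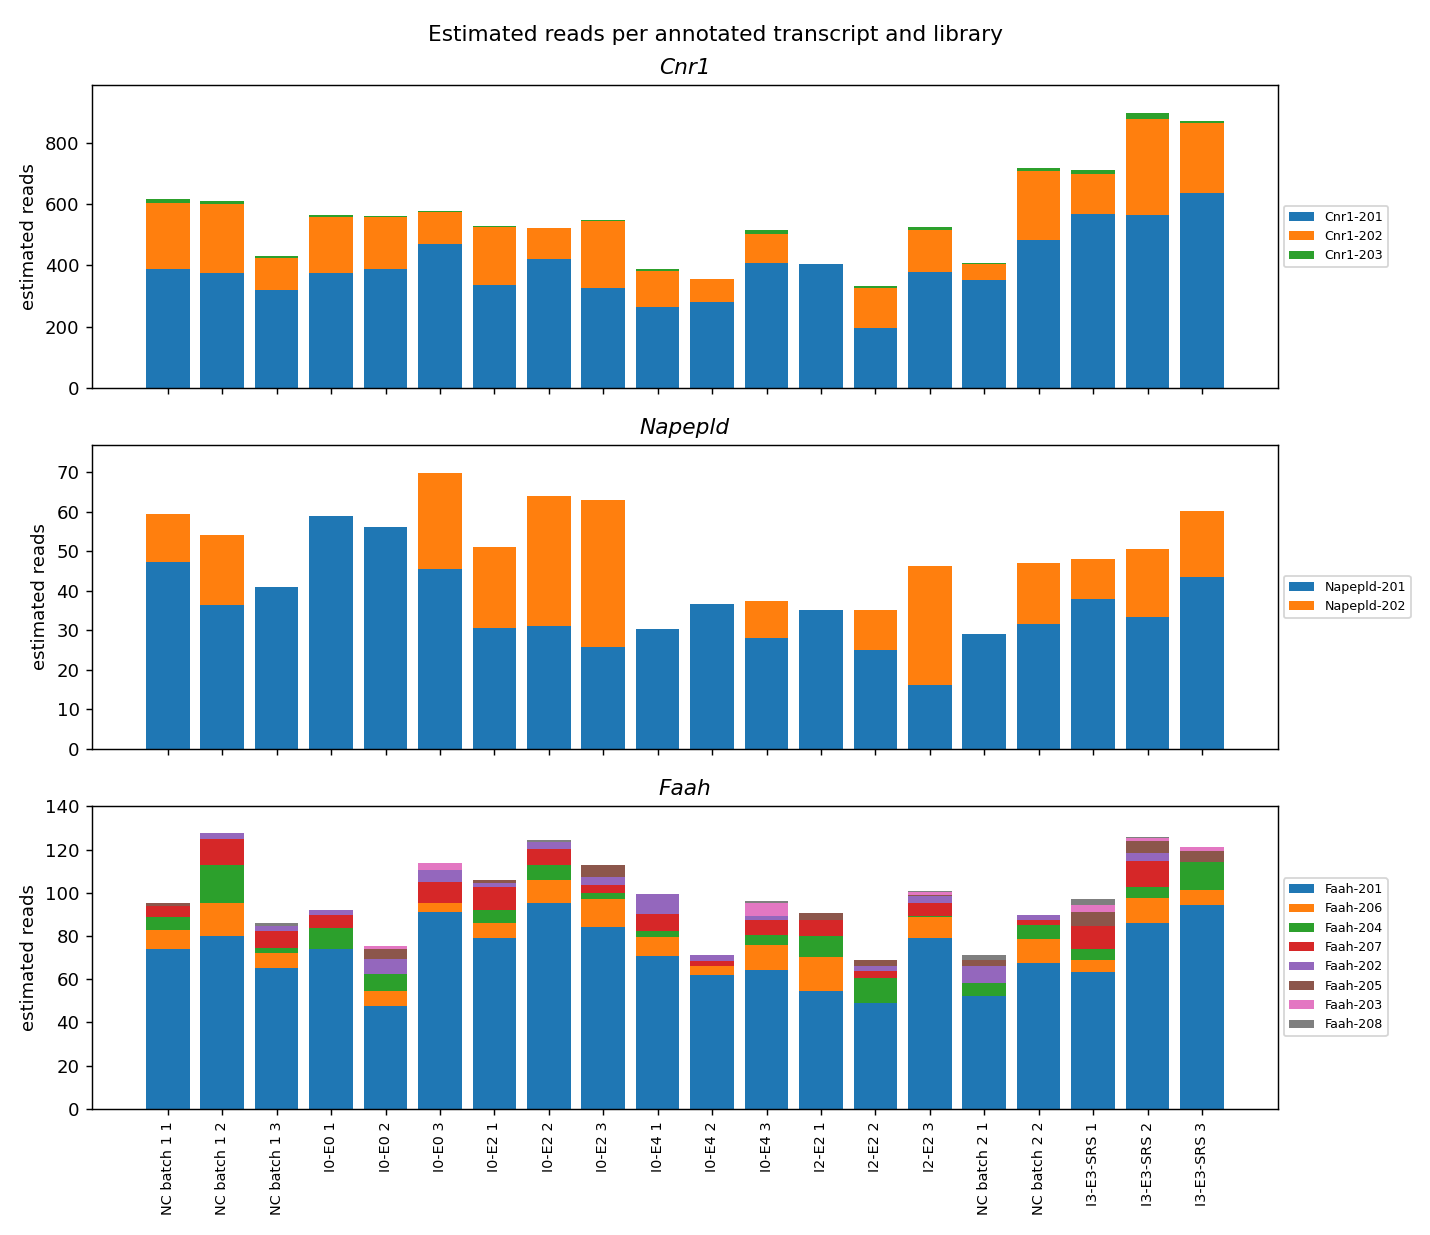
Estimated reads per annotated transcript of Cnr1, Napepld and Faah, stacked by transcript, 1 bar per library, not scaled for library size. Cnr1-201 is the largest part in every library, and several transcripts of Faah hold few reads each.

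Mgll, the principal 2-arachidonoylglycerol hydrolase of neurons (chr6:88724412-88828360, plus strand), was close to the detection limit in N2A cells. Its libraries held 3 to 14 reads in batch 1 and 0 to 8 in batch 2, where it was not tested because it did not pass the filter on low counts. In CPM the NC libraries of batch 1 were at 0.361, 0.485 and 0.928 and the I0-E4 libraries at 1.53, 1.64 and 0.723, which overlapped. The log2 fold changes against NC were 0.49 (0.60), 1.17 (0.56) and 1.12 (0.58) in I0-E0, I0-E2 and I0-E4, with adjusted p by edgeR of 1.00, 0.993 and 0.628. As a description, I2-E2 was at 0.94 (0.58). Counts this low do not allow a statement on Mgll in either direction.

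The hydrolases Abhd6 and Abhd12 carried most of the 2-arachidonoylglycerol hydrolase transcripts. Abhd6 (chr14:8002902-8056763, plus strand) held 19.0, 15.7 and 15.3 CPM in NC of batch 1 and lay between 14.4 and 17.6 CPM in all exposed libraries of that batch. Its log2 fold changes against NC were -0.05 (0.11), -0.13 (0.11) and -0.0098 (0.11) in I0-E0, I0-E2 and I0-E4, -0.02 (0.14) in I3-E3-SRS and, as a description, -0.13 (0.11) in I2-E2. Without NC replicate 1 the value of I3-E3-SRS was -0.12. Of the 31-base words of Abhd6, 89.7% occurred in no other gene, so part of its reads could be split with other genes.

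Abhd12 (chr2:150832493-150904741, minus strand) had higher CPM in every library of I0-E0 and I0-E4 than in NC, without passing the threshold. In TPM both groups, at 45.1 to 55.2 and 44.1 to 53.8, overlapped NC at 44.6 to 47.1. The NC libraries held 48.5, 51.8 and 51.3 CPM, the I0-E0 libraries 53.6, 56.8 and 56.0, those of I0-E2 51.3, 59.1 and 55.9, and those of I0-E4 56.2, 56.4 and 58.2. The I0-E2 group overlapped NC in 1 library. The log2 fold changes against NC were 0.13 (0.07), 0.13 (0.07) and 0.17 (0.07) in I0-E0, I0-E2 and I0-E4, with adjusted p by edgeR of 1.00, 0.993 and 0.612. I0-E4 differed from I0-E0 by 0.04 (0.07). The I2-E2 libraries, at 53.2, 48.5 and 57.3 CPM, overlapped NC. In batch 2 Abhd12 was at 58.5 and 56.3 CPM in NC and at 57.5, 53.9 and 54.5 in I3-E3-SRS, a log2 fold change of -0.05 (0.07). Without NC replicate 1 it was -0.028, and with counts rebuilt from TPM it was -0.58.

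**Figure D4:**
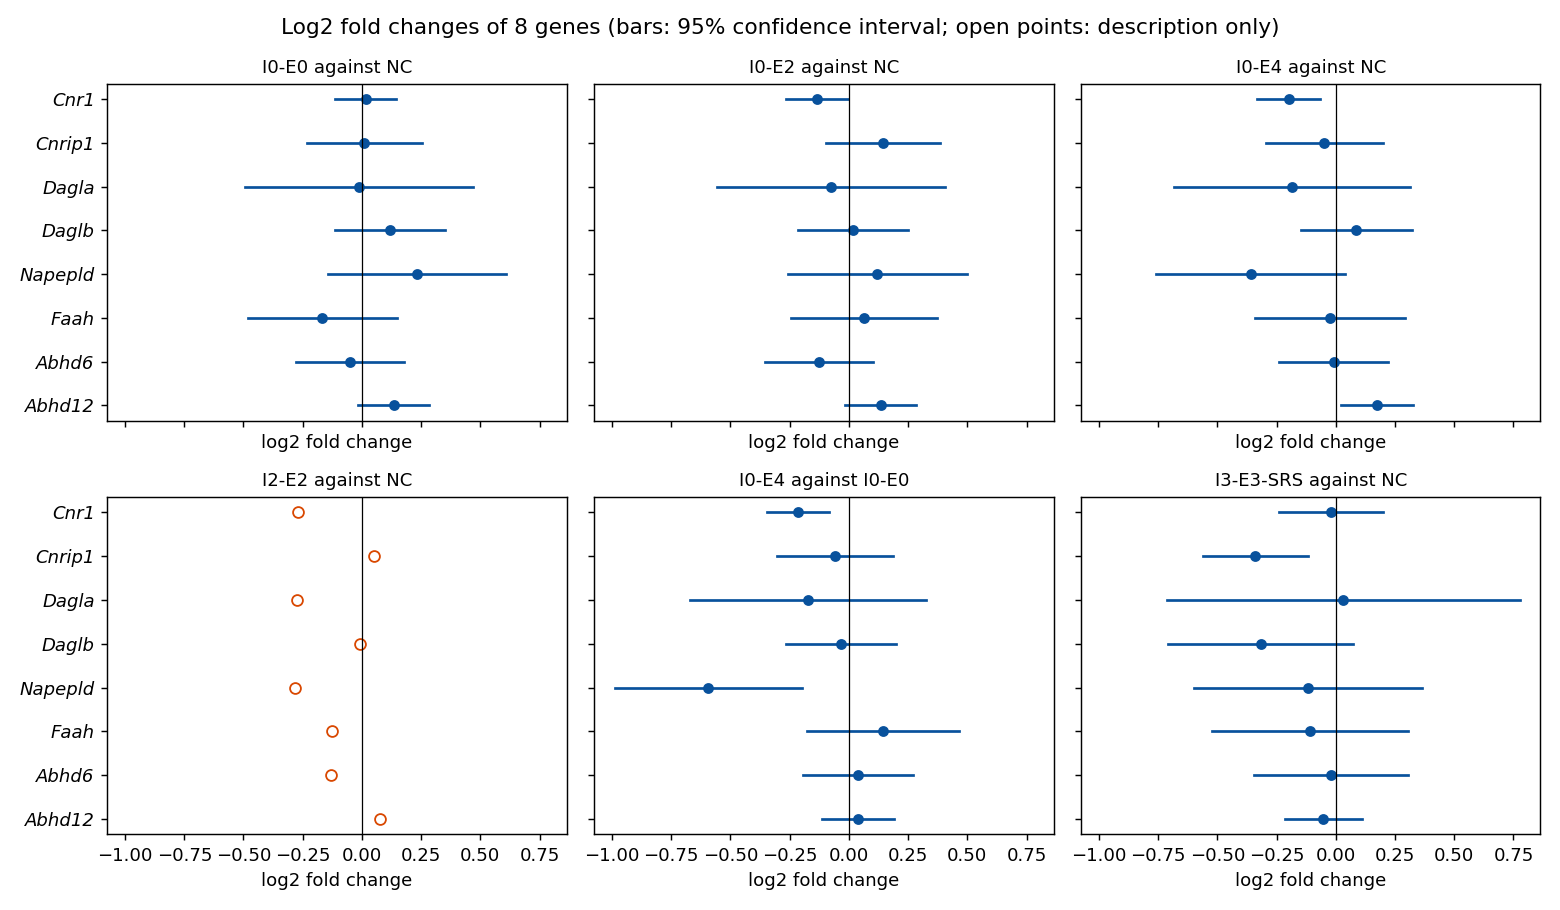
Log2 fold changes (x axis) of 8 genes in 6 comparisons, with 95% confidence intervals from edgeR. Mgll is left out for its low counts. Open points mark I2-E2 against NC, which chose the set and is a description. The intervals of Cnr1 and Napepld lie below 0 for I0-E4 against I0-E0, at -0.22 and -0.59.

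Across comparisons, 0 members passed an adjusted p of 0.05, and neither did other genes: edgeR called 0.00% of the genes tested in each of the 7 comparisons. DESeq2 called 1 gene in I0-E0, 1 in I0-E4 and 15 in I3-E3-SRS against NC and 4 in I2-E2 against I0-E2, none of them a member, and 0 in the other 3, while limma called 0 in all 7. At an unadjusted p under 0.05 by edgeR, against NC, there were 413 genes (3.36% of those tested) in I0-E0 and 413 (3.36%) in I0-E2. There were 973 (7.91%) in I0-E4 and 484 (4.02%) in I3-E3-SRS against NC, and 557 (4.53%) in I0-E4 against I0-E0. Members among them were 0 in I0-E0, 1 in I0-E2 (Cnr1), 2 in I0-E4 (Cnr1 and Abhd12), 1 in I3-E3-SRS (Cnrip1) and 2 in I0-E4 against I0-E0 (Cnr1 and Napepld). With so few members, no excess over the shares of all genes can be read from these counts. In I2-E2 against NC and against I0-E2 there were 884 (7.19%) and 645 genes (5.25%).

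The share of members whose libraries did not overlap between groups in CPM was read against the same share of all genes. In I0-E0 against NC it was 2 of 9 members (Napepld and Abhd12, both higher) beside 9.04% of all genes, in I0-E2 1 of 9 (Cnr1) beside 11.2%, and in I0-E4 2 of 9 (Cnr1 lower, Abhd12 higher) beside 12.7%. In I0-E4 against I0-E0 it was 2 of 9 (Cnr1 and Napepld, both lower) beside 8.38%, and in I3-E3-SRS 1 of 8 (Cnrip1, lower) beside 18.6%. With 9 members these counts were near the background, and no excess can be read from them. In the groups that chose the set, 2 of 9 members were lower without overlap in I2-E2 against NC beside 12.1% of all genes, and 3 of 9 (Cnr1, Napepld and Faah) in I2-E2 against I0-E2 beside 10.4%. In the latter all 9 log2 fold changes were below 0, with a median of -0.14 beside 0.0065 over all genes, a direction given as a description. The median over the members was 0.02 in I0-E0, 0.06 in I0-E2, -0.02 in I0-E4 and -0.08 in I3-E3-SRS, and -0.03 in I0-E4 against I0-E0.

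Napepld and Dagla were the members whose levels went most with Cnr1 over the 15 libraries of batch 1, with Pearson correlations of log2 CPM of 0.70 and 0.64. Abhd6 was at 0.28, Cnrip1 at 0.08, Daglb at 0.07, Abhd12 at -0.12, Faah at -0.14 and Mgll at -0.40. The 15 points share their groups and their library scaling, so these values are a description. Of 9078 genes with a mean of at least 10 CPM, the 5 most like Cnr1 were Tmf1 (0.86), Zbtb43 (0.85), Zfp46 (0.85), Enc1 (0.85) and Rfwd3 (0.83), beside a 95th percentile of 0.57 over all those genes. Within groups their correlations were 0.65, 0.76, 0.87, 0.48 and 0.65. Over the 5 libraries of batch 2 the same genes were at -0.53, 0.50, 0.26, -0.15 and -0.51, so the likeness of 3 of the 5 changed sign there. Over the 4 libraries without NC replicate 1 they were at -0.56, 0.71, 0.46, -0.16 and -0.59.

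**Figure D5:**
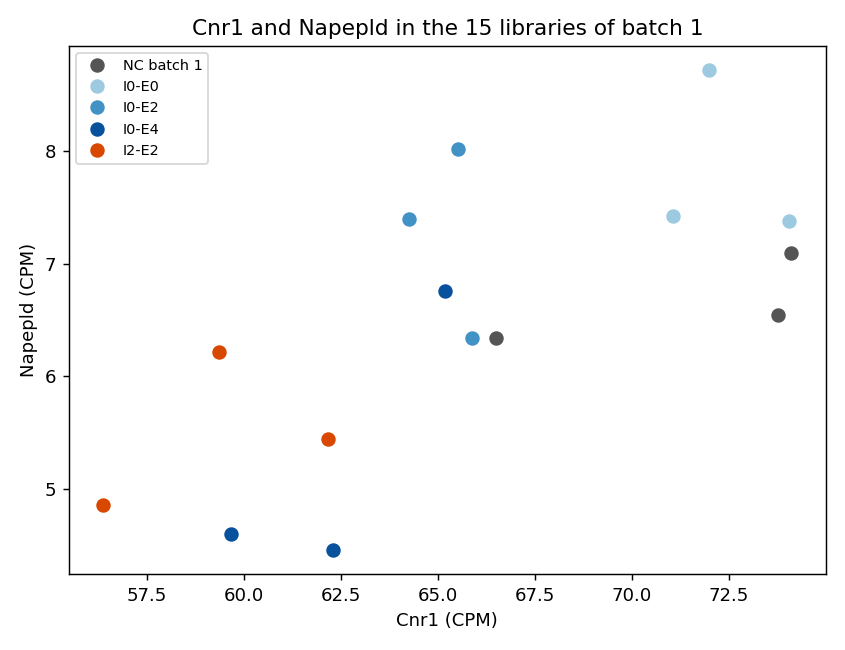
Cnr1 (x axis) and Napepld (y axis) in CPM in the 15 libraries of batch 1, 1 point per library, coloured by group. Axes do not start at 0. The I2-E2 libraries and 2 of the 3 I0-E4 libraries take the lower left and the I0-E0 libraries the upper right, with a Pearson correlation of 0.70 on the log2 scale.

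In N2A cells the other surface receptors listed were nearly absent, while the intracellular parts of the wider pathway were mixed. Of the listed receptors, Cnr2 (CB2), Gpr55, Gpr18, Gpr119 and the capsaicin receptor Trpv1 did not exceed 0.485 TPM in any library. The inhibitory G protein genes Gnai2, Gnai3 and Gnao1 had medians of 124, 76.7 and 89.5 TPM over the 20 libraries. Medians were 210 for the fatty acid carrier Fabp5, which moves anandamide inside cells, and 96.0 for Gde1, an enzyme of a second route to anandamide. Other intracellular parts were nearly absent: Gnai1 was at 0 TPM in every library. Plcb2, Pla2g4e, Ptgs2, Alox5, Alox12, Alox15 and Fabp7 had medians of 0.1545 TPM or less. Of the 36 listed genes 20 were tested in batch 1 and 19 in batch 2, and 0 passed an adjusted p of 0.05 by edgeR in any comparison. At an unadjusted p under 0.05 there was 1, in I0-E4 against I0-E0, beside 4.53% of all genes, and 0 in the other 6 comparisons. Their median log2 fold changes against NC were -0.03, 0.02, -0.01 and -0.05 in I0-E0, I0-E2, I0-E4 and I3-E3-SRS, with 8, 13, 6 and 6 genes above 0, beside medians of 0.0035, 0.00067, 0.0029 and -0.0040 over all genes. As a description, the list ran in I2-E2 from -0.20 (0.28) for Pparg, a nuclear receptor, to 0.10 (0.07) for Gnai2. In I3-E3-SRS it ran from -0.58 (0.29) for Sgip1, whose product binds CB1, to 0.18 (0.15) for Naaa, a lysosomal amidase, both with an adjusted p of 1.00 by edgeR. Sgip1 held 221 CPM in NC replicate 1 and 94.95 in NC replicate 2, and 99.1, 112 and 101 in I3-E3-SRS. The negative value thus rested on NC replicate 1, and without that library it was 0.13 (0.10, adjusted p 0.999 by edgeR), while Naaa was at 0.081.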

How the data were processed

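N2A cells were profiled by bulk RNA-seq (polyadenylated RNA, RNeasy Mini extraction, NEBNext Ultra II libraries). The authors quantified each library with Salmon and deposited its per-transcript output. The estimated counts of the authors (reads assigned to a transcript) carry no scaling for depth. The authors' TPM divides these by effective length and fixes the sum of a library, so 1 abundant transcript lowers all others. For Salmon's version and options, the read layout, the transcript release and the build: not given in the sources used here. The study's own test was limma against NC.

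Transcripts were matched by identifier to GENCODE vM21 (GRCm38), which held 98.6% of them. The others held 0.664% to 0.748% of the estimated counts and were left out. Estimated counts were summed over 34083 genes and rounded. For each batch, edgeR was run with filterByExpr (minimum count 10), TMM scaling and its quasi-likelihood test with group as the only factor, on 15 and 5 libraries with 10 and 3 residual degrees of freedom and a biological coefficient of variation of 8.26% and 11.5%. Adjusted p-values are by Benjamini-Hochberg over all genes tested, at a threshold of 0.05. Values in parentheses after a log2 fold change are standard errors. All 9 members passed the filter in batch 1 and 8 in batch 2. CPM is scaled by the TMM library size.

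The members and lists were chosen with earlier results of these data known. Named are the 9 members in every comparison, pathway genes that pass the threshold or else the highest and lowest in I2-E2 and I3-E3-SRS, and the 5 genes most correlated with Cnr1. Alternatives were RLE scaling, library totals, no filter, DESeq2, limma-voom, limma-trend (prior count 2), counts rebuilt from TPM, the replicate number as a block, the 2 groups alone and each replicate left out. Leaving out NC replicate 1 of batch 2 for the pathway genes and the correlations was added after seeing the data. The deviations of same-numbered libraries from their group means were weakly correlated. Intervals cover the spread between these libraries. Promoter windows are from RefSeq (GRCm38.p6). The versions used were matplotlib 3.10.9, pandas 2.3.3, numpy 2.4.6 and Python 3.11.15 for tables and plots, and DESeq2 1.42.0, limma 3.58.1 and edgeR 4.0.16 under R 4.3.3 for the tests. From the list of neuroblastoma markers, 1 gene is not reported here.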

Additional observations from a re-analysis of the deposited data

Results flagged for a closer look

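Napepld stood on opposite sides of the unexposed cells at the 2 settings of batch 1 with the shortest dwelling time. All 3 I0-E0 libraries were higher than all NC libraries, by 0.23 (standard error 0.18) on the log2 scale, and all 3 I2-E2 libraries were lower, at -0.28 (0.19). Both comparisons use the same NC libraries, I2-E2 belongs to the comparison that chose the set, and the difference between the 2 effects was not tested. No group held the 4 or more libraries needed for a test of outlying libraries.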

How the results depend on the processing

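The log2 fold change of Cnr1 in I0-E2, in I0-E4 and in I0-E4 against I0-E0 kept its direction under all 15 alternatives, between -0.23 and -0.11, -0.25 and -0.17, and -0.25 and -0.13, and did not pass the threshold under any, with a lowest adjusted p by edgeR, DESeq2 or limma of 0.199. Napepld in I0-E4 against I0-E0 ranged from -0.79 to -0.48, with a lowest adjusted p of 0.49 by the same tools, and Cnrip1 in I3-E3-SRS from -0.37 to -0.15, with a lowest of 0.340 over 13 alternatives. Genes called went from 0 to 110 in I0-E0, 46 in I0-E2, 172 in I0-E4, 160 in I2-E2 and 194 in I3-E3-SRS against NC, 88 in I0-E4 against I0-E0 and 125 in I2-E2 against I0-E2 without the filter on low counts, none of them a member. The cause was not tested. With DESeq2 they went to 1, 1 and 15 in I0-E0, I0-E4 and I3-E3-SRS and to 4 in I2-E2 against I0-E2, where the 2 groups alone gave 2. With each replicate left out, genes called ranged from 0 to 1 in I0-E0, 0 to 1 in I0-E2, 0 to 1 in I0-E4, 0 to 2 in I2-E2 and 0 to 671 in I3-E3-SRS. The 671 came with NC replicate 1 as the only control, which also moved the members called from 0 to 1 (Daglb), and a lone control is assumed to vary like the other group.

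Counts rebuilt from TPM turned the sign of Cnr1 to -0.055, Cnrip1 to -0.0016, Faah to 0.11 and Abhd6 to 0.00055 in I0-E0, and of Abhd6 to 0.017 in I0-E4. They also turned Faah to -0.16 and Abhd12 to -0.010 in I0-E4 against I0-E0, and Cnr1 to 0.25, Napepld to 0.061, Faah to 0.51 and Abhd6 to 0.15 in I3-E3-SRS, where Abhd12 went from -0.053 to -0.58 with no change of sign, and the cause was not tested. Limma-trend turned Dagla in I0-E0 to 0.0075. Leaving out each replicate gave ranges that cross 0. In I0-E0 these were -0.034 to 0.042 for Cnr1, -0.038 to 0.095 for Cnrip1, -0.13 to 0.13 for Dagla and -0.11 to 0.057 for Abhd6. In I0-E2 they were -0.19 to 0.072 for Dagla and -0.034 to 0.18 for Faah. In I0-E4 they were -0.14 to 0.037 for Cnrip1, -0.046 to 0.15 for Daglb, -0.14 to 0.088 for Faah and -0.067 to 0.096 for Abhd6. In I0-E4 against I0-E0 they were -0.16 to 0.030 for Daglb and -0.010 to 0.081 for Abhd6. In I3-E3-SRS they were -0.075 to 0.062 for Cnr1, -0.42 to 0.56 for Dagla, -0.61 to 0.014 for Daglb, -0.30 to 0.076 for Faah and -0.12 to 0.10 for Abhd6, and without NC replicate 1, chosen after seeing the data, Sgip1 went to 0.13.

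Same-numbered libraries correlated at -0.21 to 0.19 in the deviations from their group means (30 pairs, 3 over 0.1) in batch 1. In batch 2 the values were -0.04 to 0.04 (2 pairs). The labels do not say whether these libraries share a plate, day or preparation, and so few libraries per group cannot decide it. With the replicate number as a block, genes called went from 0 to 6 in I3-E3-SRS and stayed at 0 in the other comparisons, and Cnr1 in I3-E3-SRS went to 0.063. Depth limits Mgll, Dagla and Napepld most.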
